A study of Mus musculus with 8 samples.

Results

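The 35 genes described here encode enzymes and carriers that make, elongate, modify and transport the ceramides and fatty acids of the epidermal permeability barrier. They were selected by gene symbol, with earlier results of these data known, and all 35 were found among the 41457 genes of the deposited tables. KCs (keratinocytes, the main cell type of the epidermis) had been isolated from the tail of adult wild type C57BL/6 mice (the labels' name, C57BL/6J in the study's text), left untreated, and grown in a serum-free medium with little calcium for 1 week or for 3 weeks. There were 4 samples of each time, sequenced as poly(A) RNA, with 13896807 to 20026084 reads on exons per sample. The study describes the KCs as independent batches, each grown for both times. The sources used here do not say how many animals went into a sample, so the p-values measure the spread between these samples. The comparison asks how the time in culture was reflected in the transcripts of KCs.

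In the living epidermis, KCs leave the basal layer, stop dividing and build a water barrier in the outermost layer from ceramides, cholesterol and free fatty acids. Serine palmitoyltransferase starts the ceramide backbone, ceramide synthases attach a fatty acid, and elongases lengthen that acid to chains much longer than in other tissues. The longest chains are hydroxylated at their end and esterified with linoleic acid to form acylceramides, which are packed as glucosylceramides into lamellar granules, secreted, trimmed and oxidized by lipoxygenases, and bound to the cornified envelope. Inherited loss of many of these genes causes ichthyosis, a scaling disease of the skin.

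The cultures carried the markers of basal KCs. Their summed RPKM (reads on exons scaled to exon length and to the size of the library) was 12820 to 15169 at 1 week and 8165 to 9484 at 3 weeks, with Krt14 and Krt5, the basal keratins, among them. The 20 markers of suprabasal and granular KCs differed much more between samples. Their summed RPKM was 229, 139, 735 and 986 in 1-week replicates 1 to 4 and 90.2, 148, 104 and 238 in the 3-week replicates. Of the 15 suprabasal markers tested, 5 were lower after 3 weeks (Klk7, Krtdap, Krt1, Dsg1a and Asprv1) and 1 was higher (Casp14) in edgeR. Of all genes tested, 17.0% were lower and 15.7% higher. The median log2 fold change of these markers was -1.84. DESeq2 called 7 lower and 1 higher. In edgeR 8 were lower at an unadjusted p under 0.05, with Lor, Cdsn and Calml3 added. The lowest samples of Krt1, Krtdap and Dsg1a had only 7, 9 and 7 reads. The 1-week replicates 3 and 4 had the highest suprabasal marker sums of all 8 samples, and values of the members without them are given beside those of all samples where they decide a result. In bulk RNA, fewer cells of a type and less RNA per cell cannot be told apart.

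Of the markers of cells other than KCs, those of the sebocyte list had the highest sum. The 8 melanocyte markers summed to 5.21, 3.64, 16.4 and 21.6 RPKM at 1 week and to 1.68, 6.10, 3.38 and 4.03 RPKM at 3 weeks. Pmel, a pigment granule protein, was the 1 of 5 tested that edgeR called, and it was lower. DESeq2 called 2 lower, and in edgeR both Dct and Pmel were lower at an unadjusted p under 0.05. The 8 sebocyte markers summed to 66.5 to 119 RPKM at 1 week and to 30.9 to 53.5 RPKM at 3 weeks. Mc5r, which defines sebocytes, had reads in only 1 of the 8 samples (0.0599 RPKM), and of the 4 sebocyte markers tested only Scd1, a fatty acid desaturase, was lower. Scd1 made up most of the sebocyte sum, at 62.6, 68.1, 105 and 111 RPKM at 1 week and at 49.0, 46.5, 26.8 and 38.1 RPKM at 3 weeks. The 8 fibroblast markers summed to at most 7.06 RPKM and the 4 endothelial markers to at most 0.559 RPKM, with no call among them in edgeR or DESeq2 and 1 gene, Twist2 of the fibroblast list, at an unadjusted p under 0.05. The immune markers summed to 2.11 to 4.94 RPKM at 1 week and to 4.38 to 10.7 RPKM at 3 weeks, H2-Ab1 was the 1 of 3 tested that was higher, and Cd207, which marks Langerhans cells, was at 0 in all samples. The Merkel cell markers summed to 0.0417 to 0.149 RPKM at 1 week and to 0.311 to 0.640 RPKM at 3 weeks, without overlap. Among them Krt20, a keratin with 0 to 19 reads per sample, had too few reads for the test and was called higher in a fit without a filter on low counts (adjusted p = 0.00120 by edgeR). The part of these differences in the results was not tested.

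After 3 weeks, 7 of the barrier lipid genes were lower and 4 were higher at an adjusted p-value under 0.05 (edgeR's quasi-likelihood test, adjusted over all genes tested). The lower genes were Elovl4, Elovl7, Fabp5, Pnpla1, Cyp4f39, Abca12 and Sdr9c7, and the higher ones were Kdsr, Degs1, Sgms2 and Gba2. Changes are given as the log2 fold change (log2FC), 3 weeks over 1 week, with its standard error (SE). Among all 12590 genes tested, 17.0% were called lower and 15.7% higher. Of the members, 30 had enough reads to be tested, so 7 of 30 and 4 of 30 were called, and 19 were not. Of the 7 lower members, 6 had fallen by at least 2-fold. Sdr9c7 and Cyp4f39 were among these and passed the filter on low counts through their 1-week samples. None of the 4 higher members had risen by 2-fold. The median log2FC of the 30 members was -0.08, against 0.03 over all genes tested. In this fit the lower calls lay in the steps of fatty acid elongation and binding, acylceramide formation, lipid export and the lipid envelope, and the higher ones in backbone synthesis and sphingolipid turnover. This split was not tested and did not hold in each fit. DESeq2 also called Abhd5, of acylceramide formation, higher and Degs2, of backbone synthesis, lower. Acer1, of turnover, was lower in all 8 fits that tested it. Except in the fit without a filter on low counts, Acer1 entered through its 1-week samples, so this direction was favored in advance.

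**Figure D1:**
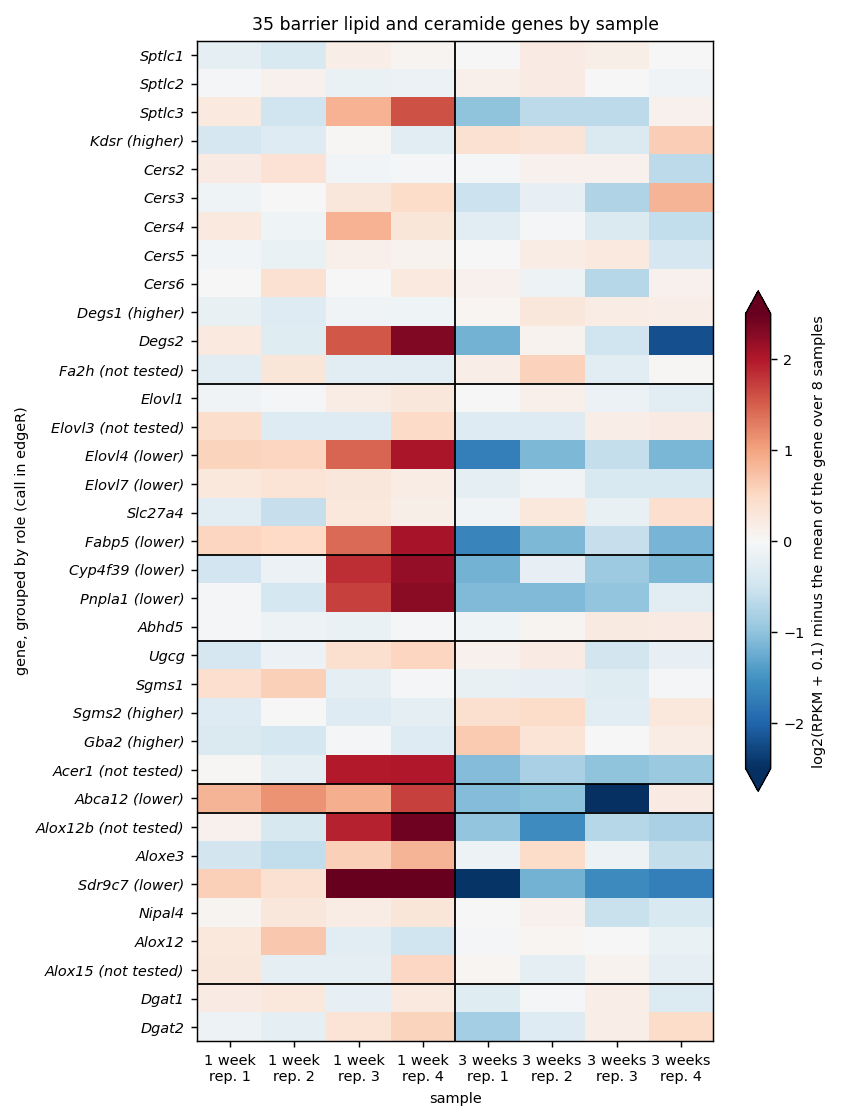
Colors show log2(RPKM + 0.1) minus the mean of each gene over the 8 samples (columns), with red above and blue below that mean, the scale ending at 2.5, and black lines separating the roles of the 35 genes (rows). The members called lower, such as Elovl4 and Sdr9c7, are reddest in 1-week replicates 3 and 4, whereas most genes of backbone synthesis are pale in all samples.

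Calls in RPKM, which were not rescaled for the makeup of the libraries, leaned more to the lower side for all genes. With limma on log2(RPKM + 0.1) the median of all genes was -0.16, and with log2(RPKM + 1) it was -0.10. On these scales 29.8% and 29.3% of all calls were higher, against 48.0% in the counts. The members split into 2 higher and 6 lower on the first scale and into 2 higher and 5 lower on the second.

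Among the elongases tested, Elovl4 (ENSMUSG00000032262, chromosome 9, 83778692 to 83806277 on the minus strand of GRCm38, as are all gene positions given) showed the largest change. ELOVL4 makes the ultra-long chains of acylceramides. Its RPKM was 8.57, 8.39, 15.9 and 24.0 at 1 week and 1.68, 2.59, 3.78 and 2.56 at 3 weeks. The groups did not overlap, and 1-week replicates 3 and 4 were the highest. By edgeR it had a log2FC of -2.24 (SE 0.41, adjusted p = 0.00366), a 4.71-fold decrease. The gene was called lower under all 20 alternatives, and without 1-week replicates 3 and 4 the adjusted p was 0.0220 (edgeR).

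Elovl7 (ENSMUSG00000021696, chromosome 13, 108214404 to 108285683 on the plus strand), an elongase of long saturated chains, moved far less. It was at 24.1, 25.4, 24.2 and 22.7 RPKM at 1 week and at 17.1, 18.7, 15.4 and 15.3 RPKM at 3 weeks. All 1-week samples were above all 3-week samples and close to each other. This gave a log2FC of -0.37 (SE 0.11, adjusted p = 0.0269 by edgeR). Without 1-week replicate 2, 1-week replicate 3 or 3-week replicate 1, the adjusted p was 0.0709, 0.0585 or 0.0654 (edgeR).

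Elovl1, the elongase of saturated very long chains, had the highest level of this family on the RPKM scale, which takes length into account. Its values were 27.6, 28.4, 33.4 and 35.9 RPKM at 1 week and 29.6, 32.1, 26.5 and 24.4 RPKM at 3 weeks. The groups overlapped, and the log2FC of 0.01 (adjusted p = 0.969 by edgeR) was within the replicate error. Elovl1 overlaps Cdc20, a cell cycle gene on the opposite strand, and the library kit named in the methods does not mark the strand. Elovl3, the elongase known from sebaceous glands, had at most 2 reads per sample and was not tested.

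The order of levels among the elongases was the same at both times, with Elovl1 first, Elovl7 in place 2, Elovl4 in place 3 and Elovl3 last, though the ranges of Elovl7 and Elovl4 overlapped at 1 week and those of no other neighbours did. The share of Elovl4 in their summed RPKM was 13.5% to 29.0% at 1 week and 3.48% to 8.27% at 3 weeks. Elovl1 took 43.4% to 45.8% and then 57.7% to 61.2% of the sum.

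The fatty acid carriers differed from each other. Fabp5 (ENSMUSG00000027533, chromosome 3, 10012548 to 10016607 on the plus strand), the main fatty acid binding protein of the epidermis, was at 40.6, 39.5, 74.4 and 117 RPKM at 1 week and at 8.86, 12.7, 18.6 and 12.4 RPKM at 3 weeks. The values did not overlap, and 1-week replicates 3 and 4 were again highest. Fabp5 fell by 2.18 on the log2 scale (SE 0.41, adjusted p = 0.00391 by edgeR), or 4.54-fold, and was called under all 20 alternatives, with an adjusted p of 0.0208 (edgeR) without 1-week replicates 3 and 4. Of its reads 78.5% aligned uniquely, and with these alone the log2FC was -2.25 (adjusted p = 0.00341 by edgeR). Slc27a4, a fatty acid transport protein and acyl-CoA synthetase needed for the skin barrier, was at 14.1, 11.5, 20.7 and 19.1 RPKM at 1 week and at 16.1, 20.7, 15.2 and 23.0 RPKM at 3 weeks. These ranges overlapped widely, with a log2FC of 0.35 (SE 0.20, adjusted p = 0.216 by edgeR).

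**Figure D2:**
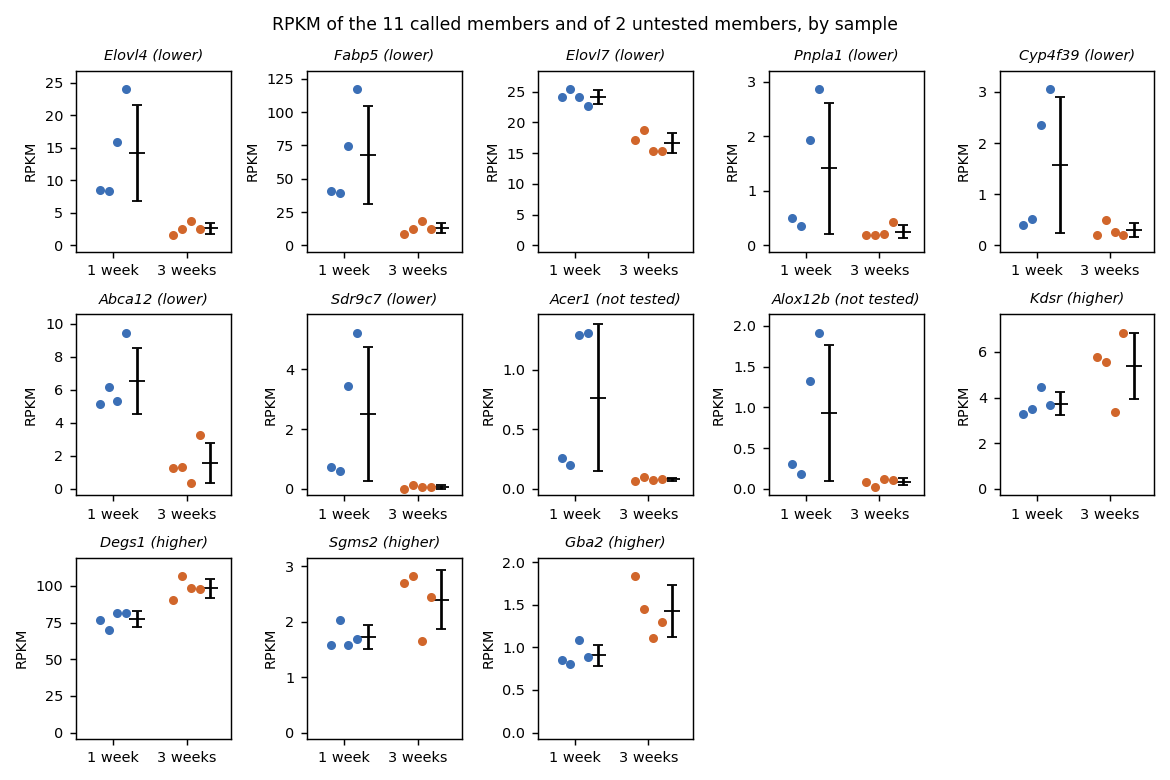
RPKM of each sample (points, blue for 1 week, orange for 3 weeks, replicates 1 to 4 from left to right) with the mean and SD of 4 samples (bars) for the 11 members called and for Acer1 and Alox12b. Elovl4, Fabp5, Elovl7, Abca12 and Sdr9c7 do not overlap between the times, and 1-week replicates 3 and 4 lie far above 1 and 2 in Pnpla1, Cyp4f39, Acer1 and Alox12b.

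Of the 3 genes of omega-hydroxylation and acylceramide formation, 2 were lower, against 17.0% of all genes tested. Pnpla1 (ENSMUSG00000043286, chromosome 17, 28858411 to 28890309 on the plus strand), the transacylase that joins linoleic acid to omega-hydroxyceramide, was at 0.4995, 0.361, 1.93 and 2.86 RPKM at 1 week and at 0.189, 0.189, 0.214 and 0.422 RPKM at 3 weeks. Only 1-week replicates 3 and 4 exceeded all 3-week samples by a wide margin, and 1-week replicate 2 lay below 3-week replicate 4. The log2FC was -2.32 (SE 0.67, adjusted p = 0.0276 by edgeR). Without 1-week replicates 3 and 4 it was -0.64 (adjusted p = 0.341 by edgeR). Leaving out 1-week replicate 3 or 4, or 3-week replicate 1, 2 or 3, gave adjusted p-values of 0.0633, 0.0778, 0.0740, 0.0724 and 0.0508 (edgeR).

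Cyp4f39 (ENSMUSG00000061126, chromosome 17, 32468462 to 32492479 on the plus strand), the omega-hydroxylase of ultra-long chain acids, was at 0.394, 0.516, 2.35 and 3.05 RPKM at 1 week and at 0.201, 0.495, 0.267 and 0.213 RPKM at 3 weeks. The groups overlapped, and 1-week replicates 3 and 4 were again apart from the rest. By edgeR it had a log2FC of -2.23 (SE 0.71, adjusted p = 0.0396), and it rested on 5 to 86 reads per sample. Cyp4f39 passed the filter on low counts through its 1-week samples, so this direction was favored in advance. It was not tested where at least 10 reads were required in every sample. Without 1-week replicates 3 and 4 the log2FC was -0.49 (adjusted p = 0.508 by edgeR). The adjusted p was also above 0.05 without 1-week replicate 3 or 4 (0.0915 and 0.114) and without 3-week replicate 1, 2, 3 or 4 (0.0994, 0.0538, 0.0648 and 0.0759, all edgeR).

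Abhd5 is the activator of lipases and of PNPLA1. It was at 10.5, 9.89, 9.54 and 10.4 RPKM at 1 week and at 10.04, 11.3, 12.6 and 12.4 RPKM at 3 weeks. Its log2FC of 0.37 (SE 0.13, adjusted p = 0.0613 by edgeR) had a sign opposite to that of Pnpla1 but did not pass the threshold. DESeq2 called it higher (log2FC 0.38, adjusted p = 0.0249), and edgeR did so without 3-week replicate 1 (adjusted p = 0.0447). The ranges overlapped, and 81.7% of its reads aligned uniquely.

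Abca12 (ENSMUSG00000050296, chromosome 1, 71242276 to 71414910 on the minus strand), the transporter that loads glucosylceramides into lamellar granules, fell. Its RPKM was 5.13, 6.20, 5.33 and 9.44 at 1 week and 1.27, 1.33, 0.358 and 3.25 at 3 weeks. The groups did not overlap, and the 1-week replicates 1 to 3 were close to each other. This gave a log2FC of -1.95 (SE 0.52, adjusted p = 0.0190 by edgeR), a 3.87-fold decrease. With 1-week replicates 3 and 4 left out, the log2FC was -1.75 and the adjusted p 0.116 (edgeR). It was 0.0531 without 1-week replicate 4, 0.0546 without 3-week replicate 1 and 0.0532 without 3-week replicate 2 (edgeR).

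Reads on introns, which can come from transcripts not yet spliced, were counted apart from those on exons. Abca12 had 40, 26, 14 and 30 intron reads at 1 week and 7, 3, 5 and 3 at 3 weeks. As CPM, relative to the exon reads of each sample, these were 1.56 ± 0.510 and 0.275 ± 0.0920 (SD, n = 4). Of the 12 members with at least 50 intron reads over all samples, only Abca12 had groups without overlap in this measure. The share of all genes without overlap in intron reads was not computed, so this count has no background beside it.

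Of the genes of the lipoxygenase pathway and the lipid envelope, Sdr9c7 (ENSMUSG00000040127, chromosome 10, 127898518 to 127911761 on the plus strand) was lower. SDR9C7 oxidizes the acylceramide made by the lipoxygenases. It was at 0.726, 0.607, 3.44 and 5.21 RPKM at 1 week and at 0, 0.140, 0.0802 and 0.0672 RPKM at 3 weeks. Each 1-week sample lay above each 3-week sample. The log2FC was -4.93 (SE 0.96, adjusted p = 0.00491 by edgeR). It was called in all 19 alternatives that tested it, with an adjusted p of 0.0355 (edgeR) without 1-week replicates 3 and 4. With 1 sample left out, the log2FC ran from -5.47 to -4.27. The 3-week replicate 1 had 0 reads, the gene passed the filter on low counts through its 1-week samples, and it was not tested where at least 10 reads were required in every sample, so the size of the change rests on few reads at 3 weeks.

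Alox12b, the lipoxygenase that starts the oxidation of acylceramides, did not have enough reads for the test. Its RPKM was 0.302, 0.180, 1.32 and 1.91 at 1 week and 0.0883, 0.0250, 0.125 and 0.112 at 3 weeks. Again the groups did not overlap, and 1-week replicates 3 and 4 were highest. In a fit without a filter on low counts, the log2FC was -3.25 (SE 0.78, adjusted p = 0.0134 by edgeR). Without 3-week replicate 1 or 2 the adjusted p was 0.0524 or 0.0526 (edgeR). With 1-week replicates 3 and 4 left out it was not tested, and the other 1-week samples were above all 3-week samples. In the fit without that filter 10.5% of 21763 genes were called lower and 7.86% higher.

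Aloxe3, the partner of ALOX12B, lay between 0.114 and 0.487 RPKM at 1 week and between 0.117 and 0.352 RPKM at 3 weeks. Its log2FC was -0.20 (SE 0.53, adjusted p = 0.803 by edgeR). In contrast to Alox12b, its groups overlapped in full. Alox12, a lipoxygenase of platelets and epidermis, ranged from 1.46 to 3.45 RPKM and from 1.87 to 2.17 RPKM, with a log2FC of 0.00 (SE 0.27 by edgeR). Alox15, a lipoxygenase better known from immune cells, had at most 3 reads per sample and was not tested.

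Nipal4, the product of which is a membrane protein mutated in ichthyosis, was at 21.7, 25.1, 23.4 and 25.5 RPKM at 1 week and at 20.4, 22.2, 14.1 and 15.7 RPKM at 3 weeks. The log2FC of -0.25 (SE 0.14, adjusted p = 0.219 by edgeR) did not pass the threshold. The 1-week values were close together, whereas 3-week replicates 3 and 4 were lower than the other samples. On the RPKM scale Nipal4 was the most abundant of the 6 genes of this role at both times.

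Of the 11 genes of backbone synthesis tested, 2 were higher and none was lower in edgeR, against 15.7% and 17.0% of all genes tested. In edgeR 3 (Sptlc3, Cers4 and Degs2) had a lower level at an unadjusted p under 0.05. DESeq2 called 3 higher and 1 lower. Degs1 (ENSMUSG00000038633, chromosome 1, 182275772 to 182282804 on the minus strand), the desaturase that makes ceramide from dihydroceramide, was the most abundant of the 11 genes. It was at 76.9, 69.7, 81.8 and 81.3 RPKM at 1 week and at 90.3, 106, 98.6 and 97.6 RPKM at 3 weeks. All 3-week samples were above all 1-week samples. By edgeR it had a log2FC of 0.51 (SE 0.12, adjusted p = 0.0115), a 1.42-fold increase, and the call held with each sample left out. It was lost with the sample number (described with the 3 shared numbers) as a block, where the log2FC was 0.37 (adjusted p = 0.134), and with the replicate number as a block (adjusted p = 0.0587, both edgeR).

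Kdsr (ENSMUSG00000009905, chromosome 1, 106720459 to 106759727 on the minus strand), which reduces the first product of serine palmitoyltransferase, also rose. Its RPKM was 3.29, 3.52, 4.48 and 3.67 at 1 week and 5.78, 5.54, 3.39 and 6.84 at 3 weeks. The groups overlapped, since 3-week replicate 3 was among the lowest samples. This gave a log2FC of 0.68 (SE 0.18, adjusted p = 0.0200 by edgeR). Without 1-week replicate 1, 2 or 4 or 3-week replicate 1, the adjusted p was 0.0826, 0.0566, 0.0552 or 0.0525 (edgeR). On log2(RPKM + 0.1) and log2(RPKM + 1) it was 0.121 each (limma).

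Serine palmitoyltransferase itself consists of SPTLC1 with SPTLC2 or SPTLC3. Sptlc1 was at 21.8, 19.5, 28.6 and 26.8 RPKM at 1 week and at 25.4, 29.4, 28.0 and 25.3 RPKM at 3 weeks. Sptlc2 was at 16.2, 17.97, 14.9 and 15.1 RPKM at 1 week and at 18.2, 19.3, 16.5 and 15.8 RPKM at 3 weeks. Both overlapped between the times, with log2FC values of 0.33 (adjusted p = 0.131) and 0.29 (adjusted p = 0.0900, both by edgeR). DESeq2 called Sptlc2 higher (adjusted p = 0.0374), as did edgeR without 3-week replicate 4 (adjusted p = 0.0280). Sptlc3, the chain for shorter and branched backbones, lay between 0.205 and 1.20 RPKM at 1 week and between 0.113 and 0.359 RPKM at 3 weeks. Its log2FC of -1.46 (SE 0.58, adjusted p = 0.0819 by edgeR) did not pass the threshold, was -0.46 (adjusted p = 0.594) without 1-week replicates 3 and 4, and only 35.2% of its reads aligned uniquely.

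The ceramide synthases differ in the chain they use, and CERS3 takes the ultra-long ones. Cers3 was at 15.2, 16.5, 19.9 and 22.4 RPKM at 1 week and at 11.2, 14.2, 9.69 and 29.5 RPKM at 3 weeks. The 3-week replicate 4 had the highest value of all, and the other 3-week samples the lowest. The log2FC was -0.05 (SE 0.31, adjusted p = 0.915 by edgeR), and without 3-week replicate 4 it was -0.48. Cers3 thus did not pass the test although Elovl4, which makes the chains it uses, did. The difference between the 2 genes was not tested.

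Cers2, the synthase for very long chains in most tissues, was at 32.4, 36.2, 26.8 and 27.8 RPKM at 1 week and at 27.7, 30.4, 30.6 and 17.9 RPKM at 3 weeks. Cers5 was at 10.2, 9.48, 11.7 and 11.3 RPKM at 1 week and at 10.6, 12.1, 12.7 and 7.98 RPKM at 3 weeks. Cers6 was at 8.62, 11.3, 8.72 and 10.4 RPKM at 1 week and at 9.38, 7.95, 5.26 and 9.40 RPKM at 3 weeks. CERS5 and CERS6 both prefer palmitic acid, and neither gene nor Cers2 differed beyond the replicate error, with adjusted p-values of 0.436, 0.564 and 0.918 in the order Cers5, Cers6 and Cers2 (edgeR). The lowest sample of Cers2 and of Cers5 was 3-week replicate 4, the one in which Cers3 was highest. Cers4 lay between 0.728 and 1.54 RPKM at 1 week and between 0.483 and 0.779 RPKM at 3 weeks, with a log2FC of -0.60 (adjusted p = 0.0981 by edgeR).

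By mean RPKM the order of the ceramide synthases was Cers2, Cers3, Cers5, Cers6 and Cers4 at both times. The ranges of Cers5 and Cers6 overlapped at both times, and at 3 weeks so did those of Cers2 and Cers3 and of Cers3 and Cers5, so the order of these neighbours was within the spread. Cers3 took 22.2% to 30.7% of the summed RPKM of the family at 1 week and 16.5% to 45.2% at 3 weeks.

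**Figure D3:**
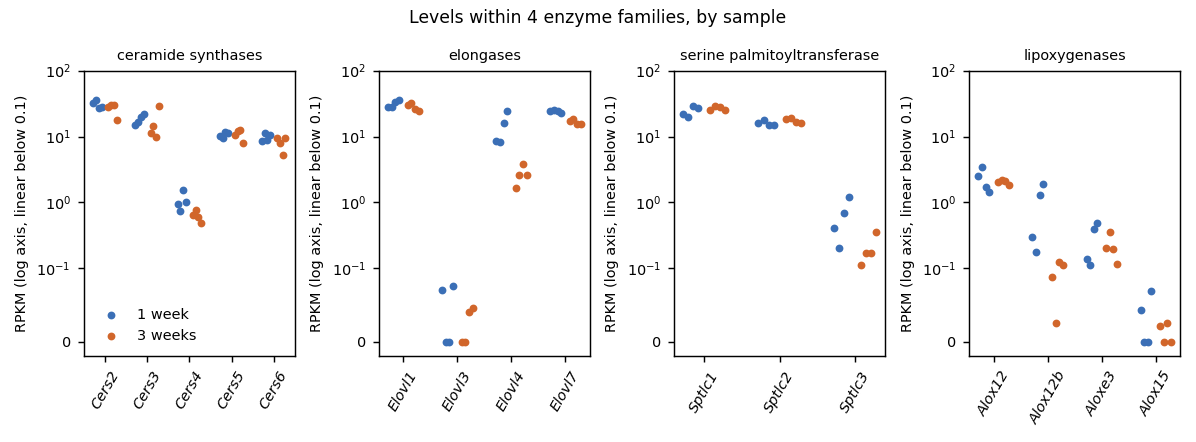
RPKM per sample on a log axis (linear below 0.1), with blue points for 1 week and orange points for 3 weeks, in 4 enzyme families. Elovl4 and Alox12b separate the times, whereas the points of Cers2, Cers5, Sptlc1 and Sptlc2 overlap.

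The 2 remaining genes of backbone modification are hydroxylases. Degs2 makes phytoceramides, which carry a further hydroxyl group. It was at 1.16, 0.771, 3.02 and 5.20 RPKM at 1 week and at 0.374, 1.04, 0.660 and 0.132 RPKM at 3 weeks. The groups overlapped, since 1-week replicate 2 lay below 3-week replicate 2. The log2FC of -2.02 (SE 0.72, adjusted p = 0.0579 by edgeR) did not pass the threshold, whereas DESeq2 called it lower (adjusted p = 0.0120). Without 1-week replicates 3 and 4 it was -0.67 (adjusted p = 0.522 by edgeR). Degs2 overlaps Evl on the opposite strand. Fa2h, the fatty acid 2-hydroxylase, had at most 4 reads per sample and was not tested.

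Of the 5 genes of glucosylceramide, sphingomyelin and ceramide turnover, 4 were tested and 2 were higher, against 15.7% of all genes tested. Sgms2 (ENSMUSG00000050931, chromosome 3, 131318985 to 131491411 on the minus strand), a sphingomyelin synthase of the plasma membrane, was at 1.59, 2.03, 1.58 and 1.69 RPKM at 1 week and at 2.70, 2.81, 1.64 and 2.44 RPKM at 3 weeks. The 3-week replicate 3 lay within the 1-week values and the others above them. By edgeR it had a log2FC of 0.63 (SE 0.17, adjusted p = 0.0197). Without 1-week replicate 1, 3 or 4 or 3-week replicate 1 or 2, the adjusted p was 0.0707, 0.0555, 0.0541, 0.0575 or 0.0633 (edgeR). It was 0.0603 without a filter on low counts (edgeR), and 0.124 on log2(RPKM + 0.1) and 0.114 on log2(RPKM + 1) (limma).

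Gba2 (ENSMUSG00000028467, chromosome 4, 43566928 to 43578873 on the minus strand), a glucosylceramidase outside the lysosome, was at 0.856, 0.802, 1.09 and 0.886 RPKM at 1 week and at 1.83, 1.45, 1.11 and 1.29 RPKM at 3 weeks. The groups did not overlap, though 1-week replicate 3 and 3-week replicate 3 were nearly equal. This gave a log2FC of 0.81 (SE 0.20, adjusted p = 0.0137 by edgeR), a 1.75-fold increase that kept its call with each sample left out. The adjusted p was 0.0877 with the sample number as a block and 0.0580 with the replicate number as a block (edgeR). Gba2 overlaps Creb3 and Rgp1 on the opposite strand, so reads from these genes cannot be told apart from its own where they overlap. The same holds for Pnpla1, Abhd5, Sptlc2, Sptlc3, Cers2, Cers4, Cers5, Sgms1 and Acer1, each of which also overlaps a gene annotated on the other strand.

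Ugcg, which makes glucosylceramide, was at 3.28, 3.95, 5.80 and 6.40 RPKM at 1 week and at 4.76, 5.08, 3.18 and 3.80 RPKM at 3 weeks. Sgms1, the sphingomyelin synthase of the Golgi, was at 14.7, 16.5, 9.39 and 10.6 RPKM at 1 week and at 9.60, 9.50, 8.89 and 10.7 RPKM at 3 weeks. Both overlapped between the times. Their log2FC values were -0.05 (adjusted p = 0.891) for Ugcg and -0.24 (adjusted p = 0.334) for Sgms1 (edgeR).

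Acer1, an alkaline ceramidase of the differentiating epidermis, had too few reads for the test. It was at 0.259, 0.200, 1.29 and 1.31 RPKM at 1 week and at 0.0663, 0.1002, 0.0752 and 0.0841 RPKM at 3 weeks. The groups did not overlap. Without a filter on low counts the log2FC was -3.07 (SE 0.69, adjusted p = 0.00926 by edgeR). It was not tested with 1-week replicates 3 and 4 left out, and the other 1-week samples were above all 3-week samples. Of the 35 members, 9 had groups without overlap in RPKM, 7 of them lower and 2 higher. Among the 30 tested, 5 were lower and 2 higher without overlap, against 26.2% and 10.8% of all genes tested.

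Triacylglycerol synthesis supplies and buffers fatty acids for the barrier. Dgat1 was at 6.96, 7.18, 5.15 and 7.12 RPKM at 1 week and at 4.85, 5.87, 6.71 and 4.70 RPKM at 3 weeks. Dgat2 was at 3.22, 2.99, 4.52 and 5.26 RPKM at 1 week and at 1.90, 2.78, 3.95 and 4.90 RPKM at 3 weeks. Neither acyltransferase differed beyond the replicate error, and neither had an unadjusted p under 0.05 or was called in DESeq2, with log2FC values of -0.08 (adjusted p = 0.787) for Dgat1 and -0.07 (adjusted p = 0.889) for Dgat2 (edgeR).

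**Figure D4:**
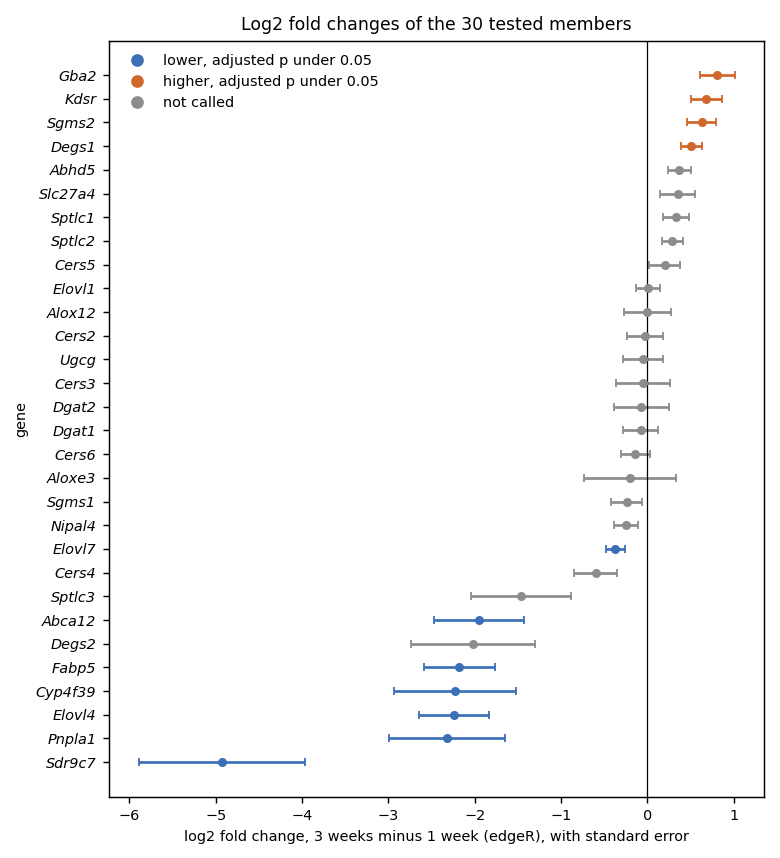
Log2FC of 3 weeks against 1 week with its standard error (horizontal bars, edgeR) for the 30 members tested, in order of size. Sdr9c7 lies at -4.93, 7 further genes between -2.32 and -1.46, and the 4 higher genes between 0.51 and 0.81.

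The deposited tables carry a sample number, and 46, 49 and 90 occur at both times. The study states that batches were the same at both times, but the sources used here do not say whether this number marks them. Within each of these 3 numbers, all 11 members called moved in the direction of the comparison of all samples. The calls came from a fit that held these same samples, so this agreement was largely fixed in advance and is no separate support. The log2 difference of Elovl4 was -2.23 for number 46, -2.47 for 49 and -3.11 for 90. That of Abca12 was -1.91, -1.87 and -1.44, and that of Degs1 was 0.33, 0.51 and 0.36 in the same order. The smallest difference within a number was that of Elovl7, at -0.24. With the number as a block in the 6 samples concerned, Degs1, Gba2 and Elovl7 lost their calls (adjusted p = 0.134, 0.0877 and 0.106, edgeR), and without the block in the same samples Degs1 did (0.0510, edgeR). The other 8 called members kept theirs under that block, and Sptlc3, Cers4, Acer1 and Alox12b were then called lower (adjusted p = 0.0239, 0.0391, 0.0120 and 0.0176, edgeR). Acer1 and Alox12b passed the filter on low counts there through their 1-week samples. With the replicate number as a block, Elovl7, Cyp4f39, Kdsr, Degs1 and Gba2 lost their calls (adjusted p = 0.0932, 0.0968, 0.0723, 0.0587 and 0.0580, edgeR).

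The members were set beside the suprabasal markers, sample by sample. Klk7, a protease of the outer epidermis, was at 9.01, 5.05, 74.5 and 134 RPKM at 1 week, and Krtdap, a protein of differentiating KCs, at 4.25, 5.08, 57.6 and 76.0 RPKM. In both genes 1-week replicates 3 and 4 were the highest, as in Elovl4, Fabp5, Pnpla1, Cyp4f39, Sdr9c7, Acer1 and Alox12b. With these samples left out, 1 member was called higher (Degs1) and 4 lower (Elovl4, Fabp5, Sdr9c7 and Sgms1). This fit had fewer 1-week samples and called 953 of 13055 genes higher and 1507 lower. With all samples 1981 and 2146 of 12590 were called, so a lost call alone does not mean a smaller change. Without 1-week replicates 3 and 4 the log2FC was -1.53 for Elovl4, -1.46 for Fabp5 and -3.06 for Sdr9c7, against -2.24, -2.18 and -4.93 with all samples. Sgms1, a sphingomyelin synthase, was at -0.55 (adjusted p = 0.0314 by edgeR), against -0.24 and no call with all samples. Gba2, Elovl7, Kdsr and Sgms2 then had log2FC values of 0.91, -0.44, 0.79 and 0.54, against 0.81, -0.37, 0.68 and 0.63 with all samples. Their adjusted p-values were 0.0525, 0.0672, 0.0784 and 0.158 (edgeR), and none of the 4 was called. Pnpla1, Cyp4f39 and Abca12 were at log2FC values of -0.64, -0.49 and -1.75 (adjusted p = 0.341, 0.508 and 0.116, edgeR), against -2.32, -2.23 and -1.95 with all samples.

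**Figure D5:**
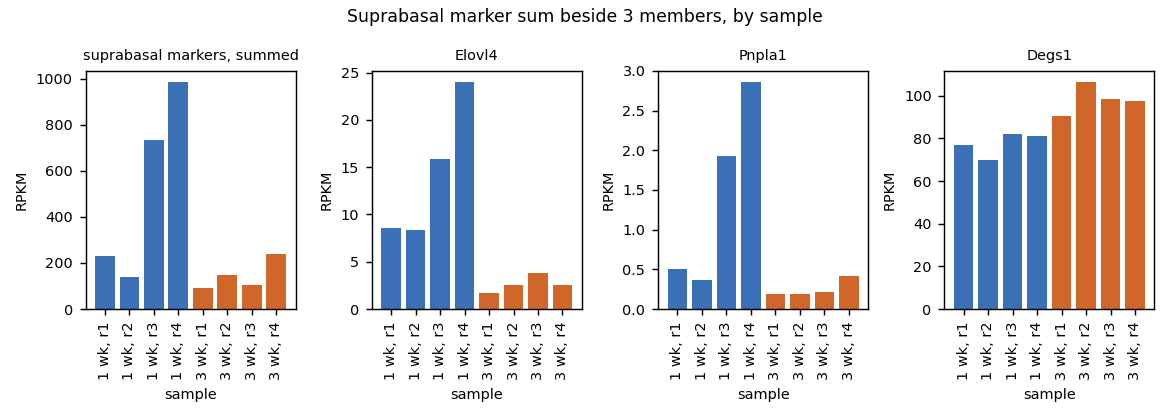
RPKM per sample (bars, blue for 1 week, orange for 3 weeks) of the summed 20 suprabasal and granular markers and of Elovl4, Pnpla1 and Degs1. The marker sum and Pnpla1 are highest in 1-week replicates 3 and 4, Elovl4 is higher in all 1-week samples, and Degs1 is higher in all 3-week samples.

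Of the 22 other genes of ceramide and sphingolipid metabolism tested, 8 were higher and none was lower in edgeR, against 15.7% and 17.0% of all genes tested, with 2 lower at an unadjusted p under 0.05 (Sptssa and Acer3) and none lower in DESeq2. The median log2FC of the list was 0.31, against 0.03 over all genes tested. Ormdl3, a brake on serine palmitoyltransferase, was at 11.3, 10.7, 9.98 and 9.29 RPKM at 1 week and at 21.7, 21.6, 23.6 and 21.1 RPKM at 3 weeks, with a log2FC of 1.26 (SE 0.13, adjusted p = 0.000401 by edgeR). Psap, the precursor of the saposins that help lysosomal enzymes reach their lipids, rose from 142 ± 12.2 to 312 ± 53.1 RPKM (SD, n = 4), a log2FC of 1.29 (adjusted p = 0.000401 by edgeR). Sgpl1, the lyase that ends sphingolipid breakdown, and Smpd1, the acid sphingomyelinase, had log2FC values of 0.77 and 0.63 (adjusted p = 0.00342 and 0.00346, edgeR). Asah1, Sphk1 and Col4a3bp were also higher. On log2(RPKM + 0.1), 2 genes of this list were called lower.

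The other genes of fatty acid elongation and barrier lipids were called in both directions, 10 of 32 higher and 6 lower (15.7% and 17.0% of all genes tested), with a median log2FC of 0.10. The lower ones with the smallest p-values were Acsl5 (log2FC -0.77), Acsl1 (-1.74) and Slc27a3 (-1.61), all of which activate fatty acids, followed by Elovl5 (-0.45), an elongase of polyunsaturated acids, and Sult2b1 (-0.81), which makes cholesterol sulfate. Acsl5 was at 42.0 to 44.9 RPKM at 1 week and at 19.8 to 26.9 RPKM at 3 weeks, without overlap. The higher ones were led by Ephx2 (2.81), a soluble epoxide hydrolase, Abca1 (2.84), a cholesterol exporter, Slc27a1 (0.77), Plin2 (1.47), a coat protein of lipid droplets, and Pnpla2 (0.76), the main triacylglycerol lipase. Plin2 was at 92.0, 79.1, 119 and 82.3 RPKM at 1 week and at 259, 271, 253 and 129 RPKM at 3 weeks. Elovl6, which elongates palmitic acid, was the remaining lower gene.

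Of the 15 transcription factors tested that are named for barrier lipid genes, 2 were lower and 2 higher, with a median log2FC of 0.06. Among all genes tested 17.0% were lower and 15.7% higher, so these counts lie near the background. Ovol1, a repressor active as KCs leave the basal layer, was at 4.60, 5.09, 9.56 and 16.7 RPKM at 1 week and at 1.33, 2.29, 0.903 and 1.95 RPKM at 3 weeks, with a log2FC of -2.33 (SE 0.45, adjusted p = 0.00472 by edgeR) and of -1.46 (adjusted p = 0.0282 by edgeR) without 1-week replicates 3 and 4. Gata3, which is needed for the epidermal barrier, had a log2FC of -1.08 (SE 0.30, adjusted p = 0.0219 by edgeR), and without those samples it was not called (adjusted p = 0.160 by edgeR). Rora, a nuclear receptor, rose from 0.983 ± 0.128 to 2.04 ± 0.621 RPKM (SD, n = 4), and Nr1h2, the liver X receptor beta, from 14.6 ± 0.379 to 17.3 ± 1.07 RPKM. With 1 sample left out, 1 to 2 factors were higher and 1 to 4 lower.

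To show the regions next to the start sites of members that moved, the 250 bases before the start were read from RefSeq (GRCm38.p6), where 28 of the 35 members had an entry. Fabp5, Aloxe3, Elovl3, Fa2h, Alox15, Dgat1 and Dgat2 had none. A pair of lower genes and a pair of higher genes, with no exon of the GENCODE M21 annotation in this window, are printed from 5′ to 3′ on the strand of the gene. Capitals mark the letters that matched a motif on either strand. The GC box was searched as GGGCGG and the TATA box as TATAAA. The site of AP-1 was searched as TGANTCA, that of Grainyhead factors as AACCGGTT, and that of C/EBP factors as TTGCGCAA. The remaining motif, the CCAAT box, was searched by the letters of its name.
Elovl4, chr9:83806306-83806555, strand minus: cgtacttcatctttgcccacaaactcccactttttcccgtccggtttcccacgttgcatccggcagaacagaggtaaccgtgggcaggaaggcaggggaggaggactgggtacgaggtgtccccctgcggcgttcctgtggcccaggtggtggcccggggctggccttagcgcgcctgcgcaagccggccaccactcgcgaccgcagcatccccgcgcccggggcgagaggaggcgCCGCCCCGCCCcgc
Abca12, chr1:71414911-71415160, strand minus: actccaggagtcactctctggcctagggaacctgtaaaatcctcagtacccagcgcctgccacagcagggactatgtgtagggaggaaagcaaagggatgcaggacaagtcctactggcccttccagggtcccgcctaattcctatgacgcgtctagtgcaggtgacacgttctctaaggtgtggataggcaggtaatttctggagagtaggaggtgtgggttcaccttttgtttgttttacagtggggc
Kdsr, chr1:106759743-106759992, strand minus: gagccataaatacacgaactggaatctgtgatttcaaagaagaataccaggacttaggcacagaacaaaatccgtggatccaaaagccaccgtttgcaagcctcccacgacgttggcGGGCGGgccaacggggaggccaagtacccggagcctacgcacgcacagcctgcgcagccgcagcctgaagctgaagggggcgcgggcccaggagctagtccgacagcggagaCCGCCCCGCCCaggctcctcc
Sgms2, chr3:131491444-131491693, strand minus: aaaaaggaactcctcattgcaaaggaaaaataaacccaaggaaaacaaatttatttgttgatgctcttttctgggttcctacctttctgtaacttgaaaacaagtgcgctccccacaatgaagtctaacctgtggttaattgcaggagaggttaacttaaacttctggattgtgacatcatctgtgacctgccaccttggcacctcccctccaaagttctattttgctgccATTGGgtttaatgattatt

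The upstream windows of Elovl4 and Kdsr held GC boxes, 2 and 3 of them with overlaps counted, whereas the window of Abca12 had none of the 6 motifs and that of Sgms2 1 CCAAT box. Their GC content was 69.6% for Elovl4, 53.2% for Abca12, 61.6% for Kdsr and 40.0% for Sgms2. A GC box was present in 18 of the 28 member windows (64.3%) and in 32.7% of all 32817 windows of the same length. The CCAAT box was in 25.0% of the member windows and 33.8% of all. The TATA box was in 1 member window, that of Sdr9c7, and in 12.4% of all, and the AP-1, Grainyhead and C/EBP letters were in no member window and in 6.75%, 0.116% and 0.165% of all. The median GC content was 64.0% for members and 52.4% for all windows. The windows of Cyp4f39, Sgms1 and Degs1 lay 15739, 1202 and 609 bases from the gene start in the deposited tables, and several member windows held exons. All windows were counted whether or not their genes were expressed here, so members and background differ in more than their role. These matches describe the letters alone.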

How the data were processed

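RNA from tail KCs of 8 samples was sequenced as single reads by the authors, who aligned them to GRCm38 with CLC Genomics Workbench at default settings. The deposited tables hold counts of reads on exons, introns and genes, and RPKM, for each gene. RPKM was made by the authors from all exon counts and exon length, including reads that map to several places.

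The counts of total exon reads of all 8 samples entered the quasi-likelihood test of edgeR 4.0.16 under R 4.3.3 (filterByExpr, TMM), 3 weeks against 1 week, without pairing. This left 12590 genes, over which p-values were adjusted by Benjamini-Hochberg at a threshold of 0.05. The standard error is the log2 fold change divided by the root of F. DESeq2 1.42.0 and limma 3.58.1 served as alternatives. In simulated counts of the same libraries with 200 genes changed, no gene was called in the wrong direction. Far fewer genes changed there than were called in these data, and replicates differed only at random, so this checked direction alone. The members and gene lists were chosen with earlier results of these data known. Per-sample RPKM is given for each member called or reaching 5 RPKM in a sample, and ranges for the others (Acer1 and Alox12b, given per sample, were added after their values were seen). From each pathway list the text names up to 5 genes per direction with the smallest adjusted p and a mean of at least 1 CPM, and some further called genes by name only. One result is not reported here. Depth was 13896807 to 20026084 exon reads, of which 81.6% to 84.7% mapped to a single place. All values cover these cultures only, and replicates of a time differed by more than sampling noise. Between the exon counts of 2 replicates, chi-square per degree of freedom was 15.5 to 64.7 at 1 week and 31.8 to 264 at 3 weeks. The largest value was that between 3-week replicates 3 and 4.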

Additional observations from a re-analysis of the deposited data

Results flagged for a closer look

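In 2 of the 61 groups of 4 samples checked among the members (those with at least 10 reads in a sample), 1 sample lay far from the other 3, where about 3 groups would be expected to by chance at a rate of 1 in 20. Pnpla1 was at 0.422 RPKM in 3-week replicate 4 and at 0.189 to 0.214 RPKM in the other 3-week samples. Dgat1 was at 5.15 RPKM in 1-week replicate 3 and at 6.96 to 7.18 RPKM in the other 1-week samples.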

How the results depend on the processing

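Over 20 alternatives, 498 of 595 log2 fold changes of single members kept their direction (to 2 decimals) and their side of the threshold, 50 lost the call, 12 gained one and 35 changed sign. Of the 20, Degs1 and Gba2 were called in 17, Abca12 in 16, Elovl7 in 14, Pnpla1 in 13, Kdsr in 12 and Sgms2 in 11. Cyp4f39 was called in 9 of the 19 that tested it. The members called higher numbered 4. There were 2 with limma on either RPKM scale and with the sample number as a block, and 1 with the replicate block or with 1-week replicates 3 and 4 left out together. Leaving out 1 sample gave 2 to 5 higher, with 2 without 1-week replicate 1 or 4, and 4 to 10 lower, with 4 without 1-week replicate 3, 1-week replicate 4 or 3-week replicate 1. Over all genes, these fits tested 12741 to 12820 and called 1371 to 2284 higher and 1631 to 2667 lower. The 10 lower members came without 1-week replicate 2, where 1783 of 12755 genes were lower. They included Acer1 and Alox12b, which the main fit did not test. With 1-week replicates 3 and 4 out, 4 members were lower against 7, and 1507 of all genes were lower against 2146. Leaving out both of these samples, and the unpaired comparison of the samples of the 3 shared numbers, were added after the data were seen. The median of the members was -0.27 with limma on log2(RPKM + 0.1). The replicate block also called 5 members and 1558 genes lower and 1309 genes higher. Samples with the same replicate number had correlations of -0.23, -0.15, -0.15 and 0.25 and those with the same sample number (46, 49 and 90) -0.23, 0.20 and 0.25. For 49 and 90 the 1-week sample had no higher value with another 3-week sample, whereas 46 reached 0.42 with 3-week replicate 3. These values do not settle the pairing. The main comparison was unpaired because the study's statistics name unpaired tests.

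In the other sphingolipid genes, 2 were lower in limma on either scale and with 1-week replicates 3 and 4 out, 1 with the sample number as a block or the unpaired shared numbers, and 0 to 1 with 1 sample left out. The higher ones numbered 5 with 1-week replicates 3 and 4 out and 6 to 9 with 1 sample out. In the other fatty acid genes, 3 were lower with both out and 4 to 8 with 1 sample out. Of the transcription factors, 1 was higher without the low-count filter, in limma, under either block, in the unpaired shared numbers, with both out and in 1 to 2 with 1 sample out, and 4 were lower in limma, 1 in the unpaired shared numbers or with both out, and 1 to 4 with 1 sample out.

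No member whose value changed sign was called with all samples or under the alternative that turned it. With 1-week replicates 3 and 4 out, the log2 fold change was 0.16 for Cers3, 0.35 for Ugcg, 0.91 for Aloxe3 and 0.26 for Dgat2. With the sample number as a block and with the shared numbers unpaired, it was -0.05 and -0.03 for Cers5, 0.03 and 0.03 for Cers6 and -0.09 and -0.09 for Elovl1, and Cers3 was at 0.01 unpaired. Elovl1 was at -0.05 without the filter, -0.02 with unique or gene reads and -0.15 on both RPKM scales. With 1 sample left out, the values ran from -0.19 to 0.13 for Cers2, -0.48 to 0.09 for Cers3, -0.07 to 0.09 for Elovl1, -0.22 to 0.11 for Ugcg, -0.50 to 0.21 for Aloxe3, -0.27 to 0.01 for Dgat1 and -0.27 to 0.14 for Dgat2. Why values moved was not tested. Depth limits the 5 untested members and the calls that rest on few reads, such as that of Cyp4f39.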

Other observations

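Reads on the introns of Dgat1, the acyltransferase that completes triacylglycerols, numbered 1, 2, 0 and 4 in the 1-week replicates and 21, 9, 3 and 20 in the 3-week replicates, while its reads on exons did not differ beyond the replicate error. As CPM, relative to the exon reads of each sample, the intron counts were 0.0973 ± 0.101 and 0.832 ± 0.559 (SD, n = 4). The groups overlapped and no test was made. Those of Elovl1 went the other way, with 8, 7, 12 and 22 reads at 1 week and 8, 1, 0 and 3 at 3 weeks. Elovl1 overlaps Cdc20 on the opposite strand.

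The summed RPKM of all 35 members was 375, 379, 449 and 519 in the 1-week replicates and 333, 380, 341 and 351 in the 3-week replicates, so 1-week replicates 1 and 2 lay among the 3-week samples. Between 22 and 30 members exceeded 1 RPKM in a sample, and the 1-week replicates 3 and 4 were the samples with 30.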
